A study of Mus musculus with 10 samples.

Results

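The autophagy, ER-phagy and lysosome genes were 44 mouse genes taken as a list of names, and each was searched for XBP-1 binding in liver. A gene counted as having a peak in a library when the summit of a peak in that library's list lay from 5 kb before to 5 kb after the gene's span in the RefSeq annotation of mm10. All 44 were found among the 21887 protein-coding genes on chromosomes 1 to 19, X and Y, which give the background for each count. Their spans had a median of 29777.5 bp (1710 to 289378 bp), against 17169 bp for all genes, so their windows were longer. XBP-1 chromatin immunoprecipitation and sequencing was done on livers of C57BL/6J mice, with an antibody to the spliced form of the factor. There were 2 libraries each from fasted wild-type mice (Fasted), fed wild-type mice (Fed), mice with a liver-specific knockout of Ern1 (Ern1-LKO) and wild-type controls of that knockout (WT), and 2 libraries of input liver chromatin. The labels give neither the length of the fast, nor the feeding state of the Ern1-LKO and WT mice, nor the Cre line, ages or whether replicates were separate animals, so the spread between replicates may be technical.

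Macroautophagy encloses cytoplasm in a double membrane and delivers it to the lysosome for breakdown. In the liver it is known for supplying amino acids, fatty acids and glucose during fasting, and ER-phagy is its selective form that removes stretches of endoplasmic reticulum (ER). XBP-1 is a basic leucine zipper factor of the unfolded protein response, whose active form is made after Ern1 (IRE1α) splices its mRNA. The transcription factors TFEB and TFE3 drive many autophagy and lysosome genes through E-boxes, and XBP-1 is known to bind sites with an ACGT core.

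Most of these genes carried an XBP-1 peak in the libraries with long peak lists, and a minority of those peaks ranked among the top 1000 of a list. A peak was found at 44 and 29 of the 44 genes in Fasted replicates 1 and 2 and at 44 and 43 in Fed replicates 1 and 2. The share of all protein-coding genes with a peak was 73.1% and 43.6% in the Fasted and 76.1% and 71.2% in the Fed libraries. In Ern1-LKO replicates 1 and 2 a peak was found at 1 and 40 of the 44, and in WT replicates 1 and 2 at 20 and 42. The background was 3.58% and 62.4% in the Ern1-LKO and 19.6% and 65% in the WT libraries. The genes thus had a peak more often than the background in 7 of the 8 libraries, and in Ern1-LKO replicate 1 the count was near it.

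**Figure D1:**
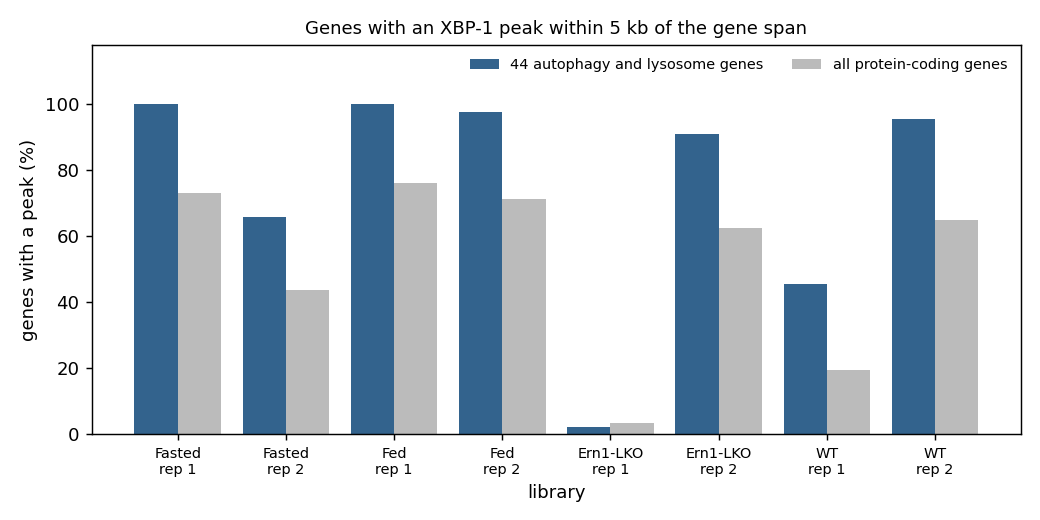
Share of genes (%, bars) with a peak within 5 kb of the span in each library, for the 44 autophagy and lysosome genes and for all 21887 protein-coding genes. The share of the 44 lies above that of all genes in every library but Ern1-LKO replicate 1, where Map1lc3b was the 1 gene of the 44 with a peak.

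The lists differed in length, and the counts moved with it. The lists held 53973 and 19237 peaks in the Fasted, 82975 and 47357 in the Fed, 698 and 30796 in the Ern1-LKO and 6258 and 30327 in the WT libraries. Kept tags ran from 4.34M (Ern1-LKO replicate 2) to 17.4M (Fed replicate 1; M, 1e6), and the shortest list came from 12M kept tags. Fasted and Fed peaks were called against one input and Ern1-LKO and WT peaks against the other, so groups were compared only within these batches. As a reference for the antibody, the peak at Xbp1 itself ranked 5 and 22 in the Fasted, 17 and 15 in the Fed, 25 and 38 in the Ern1-LKO and 83 and 69 in the WT lists. Of the fixed liver cell markers, a peak was found at 4 and 1 of 7 hepatocyte genes in the Fasted, 5 and 2 in the Fed, 0 and 2 in the Ern1-LKO and 3 and 5 in the WT libraries. Of 6 Kupffer cell genes, a peak was found at 4 and 1 in the Fasted, 4 and 4 in the Fed, 0 and 0 in the Ern1-LKO and 0 and 1 in the WT libraries. Of 5 endothelial genes it was found at 4 and 3 in the Fasted, 5 and 4 in the Fed, 0 and 2 in the Ern1-LKO and 0 and 4 in the WT libraries. Of 4 stellate cell genes it was found at 4 and 2 in the Fasted, 3 and 4 in the Fed, 0 and 3 in the Ern1-LKO and 0 and 3 in the WT libraries. Of 4 cholangiocyte genes it was found at 4 and 2 in the Fasted, 4 and 3 in the Fed, 0 and 4 in the Ern1-LKO and 0 and 3 in the WT libraries. A peak of a bound factor does not measure a cell type's share. The background for these counts is the share of all genes with a peak, given above for each library.

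Where the binding lay is shown first by sequence. The table of starts covers 37 of the 44 genes, and the others are Atg12, Atg16l1, Becn1, Ctsb, Map1lc3a, Pik3c3 and Rb1cc1. Windows from 250 bases before to 50 bases from each start (RefSeq, GRCm38.p6, the assembly of mm10) were searched on both strands for the XBP-1 element core GACGTG, the E-box CACGTG, the cAMP response element TGACGTCA, the short motif CCACG and the whole ER stress element, CCAAT followed after 9 bases by CCACG. The core was in the window of 6 of the 37 genes (16.2%), against 8.1% of the 17492 genes with a start. These were Atg4a, Atg4c, Gabarap, Nbr1, Tex264 and Uvrag. The E-box was in that of 8 (21.6%), against 8.91%, namely Atg14, Atg3, Atg5, Atg7, Ctsd, Ctsl, Lamp1 and Retreg1. The cAMP response element was in 3 of the 37 (Atg16l2, Atg5 and Retreg1; background 2.54%), CCACG, which can overlap the core or an E-box, in 28 (75.7%, against 40.4%), and the whole ER stress element in 0 (0.166%).

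Shown here are starts where the core or an E-box lay close to a summit (Nbr1, Atg4c, Atg3, Atg5), the ER-phagy receptor with the core (Tex264) and the start with the most E-boxes (Lamp1). They were chosen after their summits were seen. Left out are Ctsd, with an E-box 36 bp from the summit in Fed replicate 2, and starts where CCACG was close, such as Atg13 and Atg2b. At Atg13, CCACG lay 0 to 41 bp from the strongest summit in the 7 libraries with a peak. How often CCACG lies as close over all genes was not counted. Each run has 200 bases before the start and 10 from it, 5′ to 3′ on the gene's strand, with matches to the core (CACGTC on the opposite strand), the E-box and the cAMP response element in capitals. Nbr1 lies at chr11:101551907-101552116, plus strand. Atg4c lies at chr4:99193947-99194156, plus strand, and is shown at the second of its listed starts. Tex264 lies at chr9:106685807-106686016, minus strand. Atg3 lies at chr16:45158629-45158838, plus strand. Atg5 lies at chr10:44268139-44268348, plus strand. Lamp1 lies at chr8:13158961-13159170, plus strand.
Nbr1: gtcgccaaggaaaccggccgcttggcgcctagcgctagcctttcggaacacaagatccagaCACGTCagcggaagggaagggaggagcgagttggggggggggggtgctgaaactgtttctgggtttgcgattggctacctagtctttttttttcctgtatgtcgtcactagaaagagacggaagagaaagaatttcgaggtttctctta
Atg4c: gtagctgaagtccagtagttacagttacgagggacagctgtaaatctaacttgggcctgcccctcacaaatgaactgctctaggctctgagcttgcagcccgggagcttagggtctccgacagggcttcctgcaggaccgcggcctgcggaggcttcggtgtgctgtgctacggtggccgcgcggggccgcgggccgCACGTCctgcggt
Tex264: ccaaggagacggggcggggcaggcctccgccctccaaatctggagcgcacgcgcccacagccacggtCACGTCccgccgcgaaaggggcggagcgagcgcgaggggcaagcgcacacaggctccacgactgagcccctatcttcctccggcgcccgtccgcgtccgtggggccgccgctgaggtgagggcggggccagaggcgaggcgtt
Atg3: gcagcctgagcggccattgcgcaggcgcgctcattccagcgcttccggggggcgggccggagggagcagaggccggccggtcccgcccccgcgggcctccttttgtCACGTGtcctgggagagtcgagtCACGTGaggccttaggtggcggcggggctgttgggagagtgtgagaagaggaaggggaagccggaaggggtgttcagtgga
Atg5: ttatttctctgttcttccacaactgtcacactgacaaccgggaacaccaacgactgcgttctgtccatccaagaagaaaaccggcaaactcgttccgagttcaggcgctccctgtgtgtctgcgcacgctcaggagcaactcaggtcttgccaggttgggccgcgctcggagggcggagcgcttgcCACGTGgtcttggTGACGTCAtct
Lamp1: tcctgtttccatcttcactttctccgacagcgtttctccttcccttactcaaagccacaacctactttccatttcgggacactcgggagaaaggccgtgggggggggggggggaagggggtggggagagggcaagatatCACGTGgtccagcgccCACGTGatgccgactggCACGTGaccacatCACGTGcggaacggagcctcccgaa

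In the Nbr1 run, the core begins 139 bases before the start. The gene's strongest summit lay 9 and 14 bp from it in the Fed libraries and 11 bp from it in WT replicate 1. In the Atg4c run, the core begins 3 bases before the start. The strongest summit lay 11 bp from it in Fasted replicate 1, 31 and 3 bp in the Fed libraries, 7 bp in Ern1-LKO replicate 2 and 6 bp in WT replicate 2. Both genes had a summit within 50 bp of the core in each Fed library, 2 of the 6 genes with a core. Of all 1416 genes with a core in such a window, 6.36% and 4.45% had their strongest summit within 50 bp of it in the Fasted libraries and 13.3% and 12.9% in the Fed libraries. The same share was 2.4% and 7.49% in the Ern1-LKO and 11.7% and 11.6% in the WT libraries.

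At Atg3 the E-boxes begin 94 and 71 bases before the start. The summit lay 178 bp downstream of the first of them in Fasted replicate 1, against 1 and 12 bp from it in the Fed libraries. It lay 199 bp downstream in Ern1-LKO replicate 2, against 224 bp downstream and 3 bp upstream in the WT libraries. In Fasted replicate 2 the strongest Atg3 peak lay elsewhere, so no distance is given for that library. At Atg5 the summit lay 91 and 291 bp from the E-box in the Fasted libraries, and 6 and 67 bp in the Fed libraries. It lay over 300 bp from it in Ern1-LKO replicate 2, against 2 and 43 bp in the WT libraries. The cAMP response element in the Atg5 run was as near. It lay 76 and 276 bp from the summit in the Fasted and 2 and 52 bp in the Fed libraries. The distance was 298 bp in Ern1-LKO replicate 2, against 15 and 28 bp in the WT libraries. Of all 445 genes with that element, 21.1% and 16.4% had their strongest summit within 50 bp of it in the Fed and 8.99% and 15.1% in the WT libraries. Of all 1559 genes with an E-box in such a window, 4.36% and 3.53% had their strongest summit within 50 bp of one in the Fasted, 10.4% and 13.7% in the Fed, 0.577% and 5.2% in the Ern1-LKO and 4.11% and 8.98% in the WT libraries. Of the 8 genes here with one, 0 and 0 did in the Fasted, 2 and 2 in the Fed, 0 and 0 in the Ern1-LKO and 1 and 2 in the WT libraries. The Lamp1 run holds 4 E-boxes, beginning 61, 45, 28 and 15 bases before the start, and its summits lay downstream of all of them, 112 to 229 bp from the last one. At Tex264 the strongest summit lay 135 to 235 bp from the core in the 4 libraries where it came within 300 bp of it. A match is a description of these letters and not evidence of which protein bound.

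Across the list, 31 of the 37 genes with a start had their most shared site within 1 kb of it. A site joins neighbouring summits over all libraries, each at most 250 bp from the next, so it can be wider than 250 bp. Of these sites, 25 lay downstream and 6 upstream of the start, with a median of 203 bp downstream. The downstream position was shared with genes at large: among strongest peaks within 1 kb of a start, 76.7% and 73.3% lay downstream for these genes in the Fasted libraries and 78.8% and 74.2% in the Fed, against 78.5% and 75.7% over all genes in the Fasted and 73.8% and 73.3% in the Fed. In Ern1-LKO replicate 2 the share was 88.9% (all genes 73.1%), and in the WT libraries 64.3% and 71.9% (all genes 53% and 72.3%). The strongest peak was within 1 kb of a start for 81.1% and 60% of the genes with a peak and a start in the Fasted libraries and 89.2% and 86.1% in the Fed libraries. Over all genes this share was 65.5% and 49.2% in the Fasted and 66.1% and 64.1% in the Fed libraries. It was 81.8% in Ern1-LKO replicate 2 (all genes 66.9%) and 77.8% and 88.9% in the WT libraries (all genes 54.7% and 70.4%). For 8 of the 44 genes (Atg12, Atg13, Atg2b, Atg3, Atg4b, Atg9a, Ccpg1 and Nbr1) the most shared site was also within 1 kb of an end of another protein-coding gene, so those peaks have more than 1 candidate gene.

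**Figure D2:**
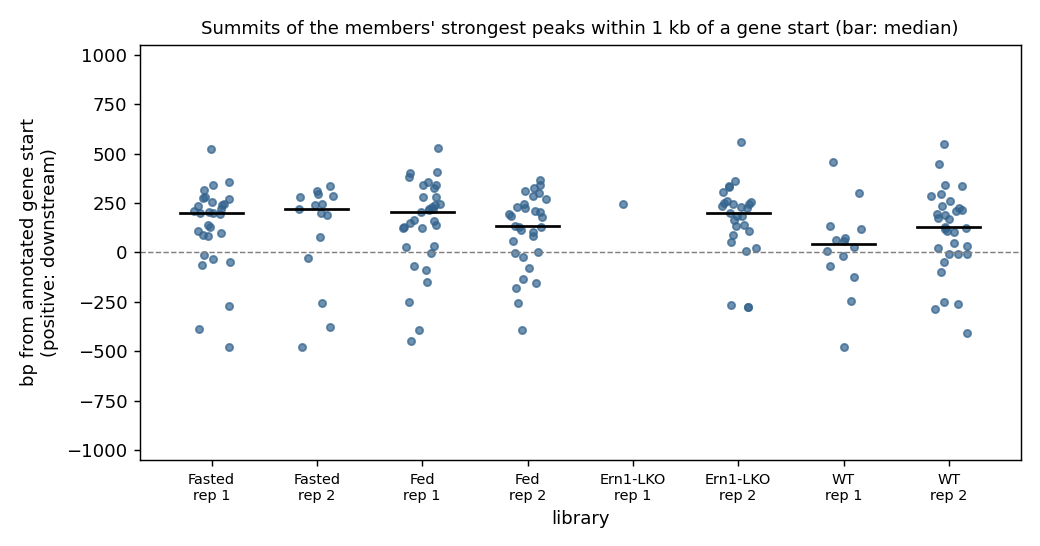
Distance (bp, positive downstream) from the nearest annotated start to the summit of each gene's strongest peak, for peaks within 1 kb, with 1 point per gene and the median as a bar. The medians lie between 44.5 bp (WT replicate 1) and 245 bp (Ern1-LKO replicate 1, with 1 peak) downstream.

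By number of libraries, 16 genes had a peak in 7, 16 in 6, 8 in 5, 3 in 4 (Atg101, Gabarapl1 and Pik3c3) and 1 in 3 (Lamp2). No gene of the 44 had a peak in all 8, a count met by 2.64% of all genes. All 7 libraries other than Ern1-LKO replicate 1 held a peak at 15 genes, Rb1cc1, Atg13, Ulk2, Uvrag, Wipi1, Atg3, Atg4b, Atg5, Atg7, Atg10, Gabarap, Optn, Sqstm1, Retreg1 and Tex264, against 13.9% of all genes. The 16th gene with 7, Map1lc3b, lacked a peak in WT replicate 1. In all, the windows held 356 sites. Of them 207 were called in 1 library and 24, at 24 different genes, in at least 6.

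**Figure D3:**
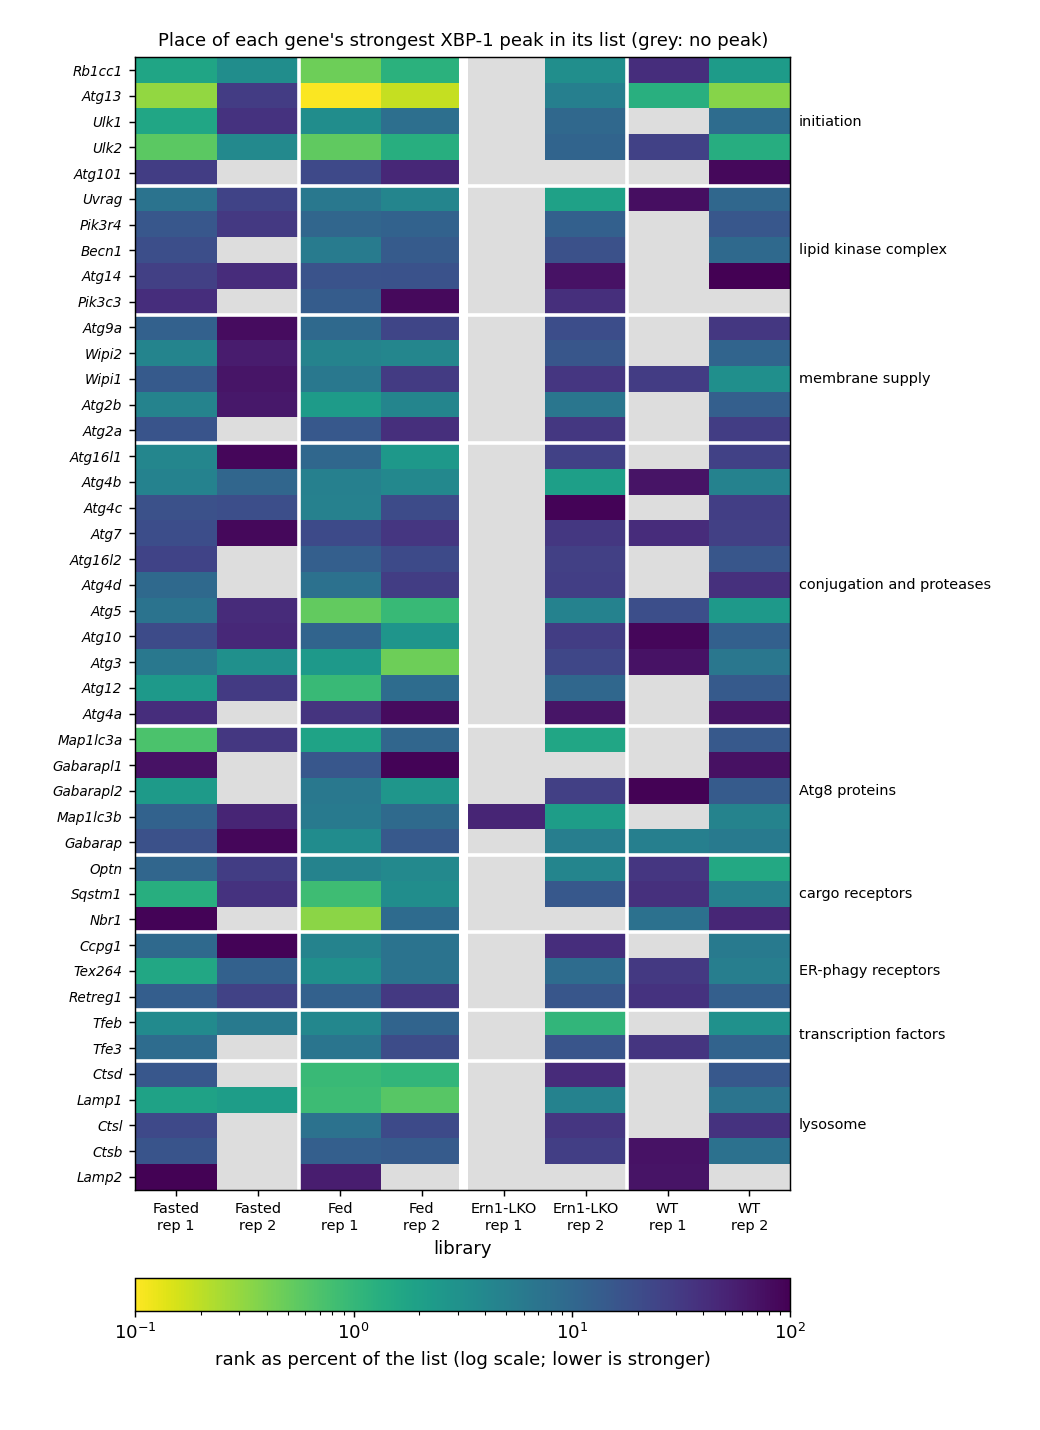
Place of each gene's strongest peak in each library's list, as its rank in percent of the list length (colour, log scale, lower is stronger, grey where no peak lay within 5 kb), with genes in rows by role and libraries in columns. Atg13 stands at 0.308, 0.104 and 0.186% in Fasted replicate 1 and the Fed replicates, and the Ern1-LKO replicate 1 column is grey but for Map1lc3b.

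Among genes with a peak, the median place of the strongest peak was 10.9% and 32.3% down the list for the Fasted libraries and 5.81% and 9.16% for the Fed. Over all genes with a peak it was 14.7% and 38.2% in the Fasted and 9.64% and 16.9% in the Fed libraries. In Ern1-LKO replicate 2 it was 16.1% (all genes 22.0%), and in the WT libraries 37.7% and 11.6% (all genes 39.1% and 21.9%). The 1000 top peaks of a list held 7 and 4 of the 44 genes in the Fasted, 9 and 7 in the Fed, 1 and 5 in the Ern1-LKO and 3 and 7 in the WT libraries. The background was 5.48% and 4.05% of all genes in the Fasted, 5.66% and 5.57% in the Fed, 3.58% and 5.48% in the Ern1-LKO and 4.78% and 5.7% in the WT libraries, and Ern1-LKO replicate 1 has fewer than 1000 peaks. For comparison, 16 ER folding genes, among them the chaperone genes Hspa5 and Hyou1, all had a peak in all 8 libraries, with 13 to 16 of them in the top 1000. That list was known earlier to carry peaks in these data, so it serves as a scale only.

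The initiation complex starts an autophagosome, and 3 of its genes, Atg13, Ulk2 and Rb1cc1, had the highest mean percentiles of the 44 over the libraries. A library without a peak takes the lowest value in this mean, so it falls with missing calls as well as with low ranks. Ulk1 and Ulk2 encode the kinases of the complex, and Rb1cc1 (FIP200), Atg13 and Atg101 its scaffold and adaptor subunits. A peak was found at 5 and 4 of the 5 in the Fasted, 5 and 5 in the Fed, 0 and 4 in the Ern1-LKO and 3 and 5 in the WT libraries. For this and the later roles, the shares of all genes were 73.1% and 43.6% in the Fasted and 76.1% and 71.2% in the Fed libraries. They were 3.58% and 62.4% in the Ern1-LKO and 19.6% and 65% in the WT libraries.

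At Atg13 (chromosome 2, 91674612 to 91710597) the site lay 255 bp upstream of the start, around 91710847. Its fold enrichment, the authors' ratio of the peak's pileup to the local background, was 23.5 and 7.28 in the Fasted libraries and 32.9 and 43.6 in the Fed. It was 13.2 in Ern1-LKO replicate 2, with no peak in replicate 1, and 18.3 and 30.1 in the WT libraries. The ranks were 166 and 5627 in the Fasted, 86 and 88 in the Fed, 1551 in Ern1-LKO replicate 2, and 81 and 107 in the WT lists. So the peak ranked 166 or better in 5 lists and lower in Fasted replicate 2 and Ern1-LKO replicate 2. The site is also within 1 kb of an end of Harbi1, and a peak list cannot assign it to either gene.

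Ulk2 had a peak at its start with ranks 304 and 751 in the Fasted and 449 and 623 in the Fed lists. The Ulk2 peak ranked 3323 in Ern1-LKO replicate 2, with none in replicate 1, and 1654 and 411 in the WT lists. Rb1cc1, with fold enrichments of 18.95 and 11.4 in the Fasted, 12.98 and 15.1 in the Fed, 16.5 in Ern1-LKO replicate 2 and 4.78 and 15.5 in the WT libraries, had its strongest peak 92 to 458 bp from an end of the gene. The Fasted and Fed values of both genes overlap. Atg101 had a peak in 4 libraries, with a best rank of 15478.

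**Figure D4:**
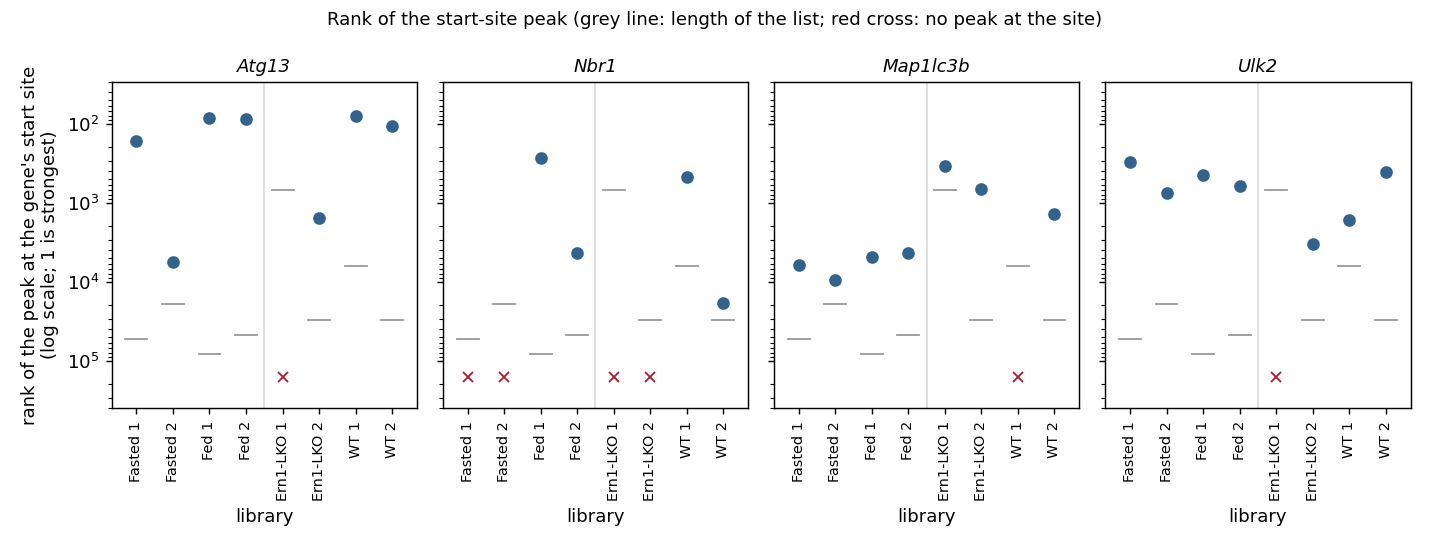
Rank (log scale, 1 is strongest, top) of the peak at the start-proximal site of Atg13, Nbr1, Map1lc3b and Ulk2 in each library, with list length as a grey line and a red cross where the site had no peak. Nbr1 has crosses in both Fasted and both Ern1-LKO libraries and points in both Fed and both WT libraries.

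The lipid kinase complex, which makes phosphatidylinositol 3-phosphate, is built on the kinase Pik3c3 (VPS34) with Pik3r4, Becn1 and either Atg14 or Uvrag. Of these 5, a peak was found at 5 and 3 in the Fasted, 5 and 5 in the Fed, 0 and 5 in the Ern1-LKO and 1 and 4 in the WT libraries. Uvrag was the highest, with a start-proximal site ranked 3881 and 4818 in the Fasted, 5279 and 2025 in the Fed, 596 in Ern1-LKO replicate 2 and 3052 in WT replicate 2. Pik3c3 and Atg14 were lower, with best ranks of 11112 and 7913.

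The membrane supply genes encode the scramblase Atg9a, the lipid transfer proteins Atg2a and Atg2b and the phosphoinositide readers Wipi1 and Wipi2. A peak was found at 5 and 4 of these 5 in the Fasted, 5 and 5 in the Fed, 0 and 5 in the Ern1-LKO and 1 and 5 in the WT libraries. Their best ranks ran from 977 (Wipi1) to 8683 (Atg2a). Atg2a held 10 and 0 peaks in the Fasted, 24 and 6 in the Fed, 0 and 6 in the Ern1-LKO and 0 and 5 in the WT libraries. Between 0.726% and 4.8% of all genes had more peaks than Atg2a in the 5 libraries where it had any.

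The conjugation genes attach Atg8 proteins to lipid. Atg7 is the activating enzyme, Atg3 and Atg10 are the conjugating enzymes, Atg12, Atg5, Atg16l1 and Atg16l2 form the ligase complex, and Atg4a to Atg4d encode the proteases that process Atg8 proteins. Of the 11, a peak was found at 11 and 8 in the Fasted, 11 and 11 in the Fed, 0 and 11 in the Ern1-LKO and 5 and 11 in the WT libraries.

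Atg5 ranked 3891 and 8115 in the Fasted lists and 435 and 452 in the Fed lists, 1438 in Ern1-LKO replicate 2 and 1184 and 737 in the WT lists. Its fold enrichment was 10.7 and 7.16 in the Fasted and 10.9 and 14.0 in the Fed libraries. These values did not overlap, though those of replicate 1 were close to each other. Folds and ranks from lists of different lengths show no change between groups. How many of all genes separate in this way was not counted. The strongest Atg4b peak was at different sites in the Fasted and Fed libraries, with folds of 15.2 and 9.68 in the Fasted at a site upstream of the start, around 93754427, where no other library had a peak. At the site 267 bp downstream of the start, Fasted replicate 1 had no peak and Fasted replicate 2 a fold of 6.04, against 6.58 and 10.6 in the Fed libraries. The fold at that site was 17.99 in Ern1-LKO replicate 2, with no peak in replicate 1, against 4.04 and 12.996 in the WT libraries. At Atg3 the start-proximal site ranked 3441 and 8335 in the Fasted, 2048 and 220 in the Fed, 7115 in Ern1-LKO replicate 2 and 4432 and 1940 in the WT lists. In Fasted replicate 2 the strongest Atg3 peak was another one, ranked 601, which lay 9532 bp downstream of the start. Atg4a had best rank 20714, the lowest of the 11.

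The Atg8 proteins coat the autophagosome membrane and hold cargo receptors. The 5 genes are Map1lc3a and Map1lc3b (LC3) and Gabarap, Gabarapl1 and Gabarapl2. A peak was found at 5 and 3 of them in the Fasted, 5 and 5 in the Fed, 1 and 4 in the Ern1-LKO and 2 and 5 in the WT libraries. Map1lc3b (chromosome 8, 121590438 to 121598760) was the gene of the 44 with a peak in both Ern1-LKO libraries. Its site lay 261 bp downstream of the start, with fold enrichments of 10.02 and 5.59 in the Fasted, 5.79 and 8.10 in the Fed, 6.26 and 22.7 in the Ern1-LKO libraries and 18.5 in WT replicate 2. The ranks were 6218 and 9533 in the Fasted, 4886 and 4337 in the Fed, 345 and 666 in the Ern1-LKO lists and 1393 in WT replicate 2. WT replicate 1 had no peak there. Rank 345 in Ern1-LKO replicate 1 is 49.4% down a list of 698 peaks, so these ranks are not comparable between lists. Gabarapl1 was near the bottom of the list of 44, with a best rank of 12636.

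Cargo receptors tie ubiquitinated cargo to Atg8 proteins. They are Sqstm1 (p62), Nbr1 and Optn. Sqstm1 ranked 718 and 7074 in the Fasted, 714 and 1581 in the Fed, 4617 in Ern1-LKO replicate 2 and 2417 and 1463 in the WT lists. Optn ranked 5571 and 5474 in the Fasted, 3767 and 1833 in the Fed, 1342 in Ern1-LKO replicate 2 and 2125 and 471 in the WT lists. In Fasted replicate 2 and WT replicate 1 the strongest Optn peak lay 4956 and 27498 bp downstream of the start, and in the other 5 libraries 230 to 336 bp downstream.

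Nbr1 (chromosome 11, 101552107 to 101581951) was the 1 gene of the 37 with a start whose start-proximal site separated the groups in both comparisons. Of genes at large, 1.15% had a start peak in the Fed pair and in no Fasted library. A start peak in the WT pair and in no Ern1-LKO library was found at 0.703%. How many genes at large separate in both comparisons was not counted. The site, 151 bp upstream of the start, had no peak in either Fasted library, against fold enrichments of 17.0 and 10.2 in the Fed libraries. It had none in either Ern1-LKO library, against fold enrichments of 10.8 and 5.38 in the WT libraries. The Ern1-LKO replicate 1 list holds 698 peaks, and 3.58% of genes at large had a peak in it. A missing peak there therefore says little, and the Ern1-LKO side rests mainly on replicate 2. The Nbr1 ranks were 273 and 4289 in the Fed lists. They were 479 in WT replicate 1 and 18536 of 30327 in WT replicate 2. Of the authors' lists for pooled replicates, those for Fasted and Ern1-LKO held no Nbr1 peak, and those for Fed and WT held one at ranks 339 and 2026. Fasted replicate 1 had a weak peak inside the gene, ranked 50171 of 53973, so the wide window did not count Nbr1 as lacking a peak in both Fasted libraries. The site also lies within 1 kb of an end of Brca1.

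The ER-phagy receptors Retreg1 (FAM134B), Tex264 and Ccpg1 link the ER to Atg8 proteins. A peak was found at 3 and 3 of them in the Fasted, 3 and 3 in the Fed, 0 and 3 in the Ern1-LKO and 2 and 3 in the WT libraries. Tex264 had fold enrichments of 19.4 and 12.3 in the Fasted, 6.86 and 9.47 in the Fed, 14.0 in Ern1-LKO replicate 2 and 5.66 and 13.7 in the WT libraries, although the Fasted replicate 2 peak lay 7614 bp from the start. At the start-proximal site the fold in Fasted replicate 2 was 6.62, below both Fed values. Retreg1 and Ccpg1 had best ranks of 2303 and 1817.

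The transcription factors Tfeb and Tfe3 regulate lysosome and autophagy genes. Tfeb ranked 1977 and 1123 in the Fasted, 3386 and 5128 in the Fed, 329 in Ern1-LKO replicate 2 and 912 in WT replicate 2, and had no peak in Ern1-LKO replicate 1 or WT replicate 1. The Fasted and Fed ranks did not overlap, but ranks from lists of different lengths show no change, and the Fed replicate 1 peak, 129 bp downstream of a start, was not at the upstream site of the other 5 libraries. Tfeb held many peaks, 16 and 2 in the Fasted, 25 and 11 in the Fed, 0 and 11 in the Ern1-LKO and 0 and 13 in the WT libraries, and between 0.224% and 6.46% of all genes had more in the 6 libraries where it had any. The median gene had 0 to 2. Tfeb spans 55380 bp, against a median of 17169 bp for all genes, so its window was longer and these counts are not adjusted for length.

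The lysosome genes encode the membrane proteins Lamp1 and Lamp2 and the proteases Ctsb, Ctsd and Ctsl. A peak was found at 5 and 1 of the 5 in the Fasted, 5 and 4 in the Fed, 0 and 4 in the Ern1-LKO and 2 and 4 in the WT libraries. Set beside the shares of all genes, this was lower in Fasted replicate 2 and Ern1-LKO replicate 1 and higher in the other libraries. Lamp1 ranked 1009 and 407 in the Fasted, 721 and 284 in the Fed, 1452 in Ern1-LKO replicate 2 and 2111 in WT replicate 2. Ctsd had a peak at its start ranked 8670 in Fasted replicate 1 and 762 and 498 in the Fed lists, with none there in Fasted replicate 2. It had none there in either Ern1-LKO library, and in the WT libraries none in replicate 1 and one ranked 4488 in replicate 2. Lamp2 had the lowest mean percentile of the 44, with folds of 4.21 in Fasted replicate 1, 4.49 in Fed replicate 1 and 5.55 in WT replicate 1.

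Fasted was then set against Fed. With 2 libraries a side an exact two-sided test cannot go below p = 0.33, so presence is counted. A peak lay in both Fasted libraries at 29 genes and in both Fed libraries at 43, against 43.2% and 68.8% of all genes. No gene had a peak in both Fasted and neither Fed library (background 0.0731%), and none had one in both Fed and neither Fasted library (1.2%). Without Fasted replicate 2 the Fasted count was 44, and without Fasted replicate 1 the Fed-only genes numbered 14. Within 1 kb of a start, 18 of 37 had a peak in both Fasted and 34 of 37 in both Fed libraries (26.8% and 55%), with 0 Fasted-only (0.0743%) and 1 Fed-only gene, Nbr1 (1.15%). Among the 19237 top peaks of each list, the length of the shortest of the 4, a peak was found at 39 and 29 genes in the Fasted (57.4% and 43.6%) and 42 and 39 in the Fed libraries (58.6% and 56.7%). At this equal length the Fasted-only genes numbered 0 (0.937%) and the Fed-only gene was Nbr1 (1.74%).

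Ern1-LKO was set against WT in the same way. A peak lay in both Ern1-LKO libraries at 1 gene, Map1lc3b, and in both WT libraries at 19, against 3.54% and 18.3% of all genes. No gene was Ern1-LKO-only, with a peak in both Ern1-LKO libraries and in no WT library (0%), and Nbr1 was WT-only (0.896%). Without Ern1-LKO replicate 1 the count for Ern1-LKO was 40, without WT replicate 1 that for WT was 42, and without Ern1-LKO replicate 2 the WT-only genes numbered 19. Within 1 kb of a start, the counts were 1 and 15 of 37 (2.78% and 11.3%), with 0 Ern1-LKO-only (0.0229%) and 1 WT-only gene, Nbr1 (0.703%). Among the 698 top peaks a peak was found at 1 and 5 genes in the Ern1-LKO (3.58% and 3.83%) and 3 and 4 in the WT libraries (3.54% and 4.01%). The Ern1-LKO-only gene was then Map1lc3b (0.635%) and the WT-only gene Atg13 (0.923%). The 5 genes of Ern1-LKO replicate 2 were Atg4b, Map1lc3a, Map1lc3b, Tfeb and Uvrag.

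Other genes of the pathway, from 4 lists, put the 44 in context. Of 24 further selective autophagy and ER-phagy genes, a peak was found at 23 and 14 in the Fasted, 24 and 23 in the Fed, 5 and 23 in the Ern1-LKO and 16 and 24 in the WT libraries. The share of these genes with a peak was above that of all genes in each library. Those with a peak in all 8 libraries included Cdk5rap3, Ufc1 and Ufl1, of the UFM1 conjugation pathway that marks ER ribosomes, and Pink1, a kinase of mitophagy. Ufl1, the UFM1 ligase, ranked 13 and 33 in the Fasted, 12 and 13 in the Fed, 220 and 127 in the Ern1-LKO and 88 and 62 in the WT lists. Cdk5rap3, a partner of Ufl1, ranked 194 and 8136 in the Fasted, 87 and 111 in the Fed, 87 and 3969 in the Ern1-LKO and 334 and 302 in the WT lists.

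The 16 subunits of the vacuolar ATPase, which acidifies the lysosome, had a peak at 16 and 5 in the Fasted, 16 and 16 in the Fed, 0 and 15 in the Ern1-LKO and 3 and 16 in the WT libraries. The 28 other lysosomal genes had one at 28 and 14 in the Fasted, 28 and 27 in the Fed, 0 and 25 in the Ern1-LKO and 5 and 24 in the WT libraries. The 20 genes of MTORC1, AMPK and lysosomal signalling had one at 20 and 12 in the Fasted, 20 and 20 in the Fed, 2 and 19 in the Ern1-LKO and 5 and 20 in the WT libraries. In Fasted replicate 2 and WT replicate 1, 43.6% and 19.6% of all genes had a peak. There the shares were 31.2% and 18.8% for the ATPase, 50% and 17.9% for the other lysosomal and 60% and 25% for the signalling genes. Outside these libraries and Ern1-LKO replicate 1, each list was above the share of all genes. The 2 signalling genes with a peak in Ern1-LKO replicate 1 (10%, against 3.58% of all genes) were Lamtor2, of the lysosomal scaffold for MTORC1, and Fnip1, a folliculin partner. The strongest Lamtor2 peak in Fed replicate 1 also lay within 1 kb of an end of Ubqln4.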

How the data were processed

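XBP-1 chromatin immunoprecipitation libraries of liver (8) and 2 inputs gave 12 peak lists, 1 per library and 1 per pooled group. Per the submitters' processing notes, the authors used the tools MACS2 2.2.1, Bowtie2 2.2.5 and FastQC 0.11.3 and the build mm10; per the file headers, MACS was version 2.1.1.20160309 with a q cutoff of 0.05, against inputs of 39.67M (Fasted, Fed) and 16.51M kept tags (Ern1-LKO, WT). The authors' lists give, per the file headers, a pileup signal, a fold enrichment (ratio) and −log10 p-values and q-values per peak. These values are theirs and served only to order, select and describe peaks of 1 list.

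Peaks were ranked by −log10 p and then fold. Gene spans and promoter sequences came from RefSeq (GRCm38.p6). Counts of genes with a peak were compared with Python 3.11.15, pandas 2.3.3 and numpy 2.4.6, without tests. The replicate number does not pair animals in the labels. On simulated peaks, 200 of 200 planted in gene windows were recovered. Named genes were all 44, in full for the 10 with the highest mean percentile and those separating a comparison. The members and lists were chosen with earlier results of these data known. Alternatives were the gene ends or start (1 kb), −log10 q and fold limits of 5, equal list lengths and pooled lists. Others were site distances of 100 and 500 bp and leaving out each library. A replicate block was also counted, but it repeats the main one-sided rule. The top 1000 count was added after the data were seen.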

Additional observations from a re-analysis of the deposited data

How the results depend on the processing

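Counts of genes by presence of a peak depended on list length. The count in both Fasted libraries (29) was 18 at the start and 29 to 44 with 1 library left out. That in both Fed and neither Fasted (0) was 1 at gene ends, at the start, at a −log10 q of 5, at a fold of 5 and at equal lengths, 2 in the pooled lists and 0 to 14 with 1 library left out. That in both Ern1-LKO (1) was 35 in the pooled lists and 1 to 40 with 1 left out, and that in both WT (19) was 11 at a fold of 5, 1 at equal lengths, 38 pooled and 20 to 42 with 1 left out. The Ern1-LKO-only count (0) was 1 at equal lengths and 0 to 1 with 1 left out, and the WT-only count (1) was 3 pooled and 1 to 19 with 1 left out, 19 being the value without Ern1-LKO replicate 2. The count in all 8 (0) was 15 without Ern1-LKO replicate 1 and 1 without WT replicate 1 (0 to 15), and that of a site in all 8 (0) was 8 and 1 (0 to 8). The replicate block asks for the same calls as the main one-sided rule. Its counts of 0, 0, 0 and 1 could therefore not differ and are no check. The cause of these shifts was not tested. Nbr1 was the Fed-only gene at the start and at equal lengths. The start setting covers 37 genes, and a peak list allows no statement on binding below the caller's threshold.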
